A study of Homo sapiens with 2 samples.

Results

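The mRNAs of 9 genes that the transcription factor NRF2 is known to switch on were followed in the RNA that co-precipitated with LRPPRC from A549 cells. They are the quinone reductase gene NQO1, the glutathione synthesis genes GCLC and GCLM, the cystine transporter gene SLC7A11, the thioredoxin reductase gene TXNRD1, the heme oxygenase gene HMOX1 and the pentose phosphate genes PGD, TALDO1 and TKT. They were picked by name as known NRF2 targets, with earlier results of these data known, and each had 1 row among the 21262 rows of the deposited table, which hold 16770 distinct gene names. LRPPRC is an RNA-binding protein of mitochondria and cytoplasm, and the study asked which RNAs it binds in lung adenocarcinoma cells. Lysates of A549, an epithelial lung adenocarcinoma line labelled WT for genotype and given no treatment in the labels, were incubated with 2 μg of anti-LRPPRC antibody, and the captured RNA was sequenced as total RNA in 2 libraries, replicate 1 and replicate 2. Only this line was used, and its replicates are called biological in the paper but technical in the series description, so their spread may be technical only. Because both libraries have the same condition, nothing was tested, and all values are descriptions of the pair.

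NRF2, encoded by NFE2L2, is held low in unstressed cells by KEAP1, an adaptor that hands it to a CUL3 ubiquitin ligase. Oxidants and electrophiles, or loss of KEAP1 function, free NRF2 to bind antioxidant response elements with a small MAF partner and to raise genes that make glutathione, reduce thioredoxin and quinones and supply NADPH. A549 is known as a KEAP1 mutant line with constitutive NRF2 activity. The values here are FPKM, in which the fragments of a gene are divided by its transcript length and by the mapped total of the library. They give the level of an mRNA in the LRPPRC precipitate. They are not divided by the level of that mRNA in the cell, since neither an input nor an IgG library was analysed here, so a high value can come from abundance as well as from capture.

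The 9 mRNAs were detected in both libraries and ranged widely in level. TXNRD1 and TALDO1 stood highest, GCLM, NQO1, GCLC and PGD formed a close group just below FPKM 30, the threshold that the study applied to its RIP-seq, and TKT, SLC7A11 and HMOX1 were below FPKM 10 on average. The median of the 9 mean levels was 24.6 FPKM, against 6.81 FPKM for the 10441 named genes that reached FPKM 1 in each library, which serve as the background throughout. Of the 9 genes, 2 had a mean above FPKM 30, against 13.6% of the background. At FPKM 20 there were 6 of 9 genes against 21.1% of the background, and at FPKM 50 there were 2 of 9 against 6.89%. The count thus turned on where the threshold lay, since 4 of the genes had means between FPKM 20 and 30. These shares were not tested, and with 9 genes they describe the set only.

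The promoters of these genes were searched for the core of the antioxidant response element, the sequence through which NRF2 acts, because it is the feature that groups them as NRF2 targets. RefSeq windows on GRCh38.p14, from 250 bases before to 50 bases after a transcription start, matched 7 of the 9 genes with 8 windows, TXNRD1 having 2. The letters TGACNNNGC, on either strand, were found in 4 of the 8 windows, those of GCLM, TXNRD1 and PGD, against 13.3% of all 35116 windows. TXNRD1 counts with 2 windows here, and by gene this was 3 of 7, against 4384 of 27305. The genes were picked as NRF2 targets, and the difference was not tested. The letters TGANTCAGC, which overlap the first motif where their N is C, were found in no window of these genes and in 1.36% of all windows. The stretches before the start site are shown 5′ to 3′ on the strand of the gene, with the match in capitals. Of the 4 matches shown, 3 are on the opposite strand and read GCNNNGTCA here.
GCLM, chr1:93909436-93909484, minus strand: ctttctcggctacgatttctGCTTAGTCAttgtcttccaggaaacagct
TXNRD1, downstream start, chr12:104286910-104286958, plus strand: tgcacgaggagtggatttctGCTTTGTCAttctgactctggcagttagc
TXNRD1, upstream start, chr12:104215660-104215708, plus strand: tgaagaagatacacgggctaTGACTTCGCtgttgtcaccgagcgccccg
PGD, chr1:10398843-10398891, plus strand: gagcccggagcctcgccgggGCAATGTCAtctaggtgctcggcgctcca

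The match in GCLM ended 26 bases before its start site, those in TXNRD1 ended 94 and 91 bases before its downstream and upstream start, and that in PGD ended 193 bases before. Around the match, GCLM and the downstream TXNRD1 window shared 17 of 18 bases in a row. GCLM and PGD shared at most 5 of 5, and PGD and the downstream TXNRD1 window at most 6 of 6. The windows were lined up on the match, so the fixed letters of the motif in these stretches are the same through the search itself. A further match in the upstream TXNRD1 window reached past the start and is not shown. No match was found in the windows of NQO1, GCLC, TALDO1 and TKT, which says only that these letters are not in these windows. A match is a description of the letters, and RIP does not measure binding of NRF2.

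TXNRD1, which encodes the cytosolic selenoenzyme that reduces thioredoxin with NADPH, had 138 FPKM in replicate 1 and 130.2 FPKM in replicate 2, a mean of 134 ± 5.56 FPKM (SD, n = 2). It ranked 159 of the 10441 background genes, above 98.5% of them, and held 42.7% of the summed mean FPKM of the 9 genes. Both of its values lay above every value of the other 8 genes, and its level was 2.53 times that of TALDO1 in replicate 1 and 2.38 times in replicate 2. The gene spans chr12:104215779-104350307 on the plus strand of GRCh38 with 17 exons in its canonical transcript. EID3, a gene on the same strand that shares none of these exons, was at 0.850 and 0.698 FPKM.

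The substrate and the paralogs of TXNRD1 were far lower. TXN, the cytosolic thioredoxin, had 3.26 FPKM in replicate 1 and 3.13 FPKM in replicate 2, so TXNRD1 was 42.3 and 41.7 times as high per length of transcript and 219.9 times with FPKM multiplied by length. TXNRD2, the mitochondrial reductase, had 1.17 and 1.23 FPKM, and TXNRD3 had 2.74 and 2.13 FPKM. TXN has processed pseudogenes of 90.3% to 93.6% identity over 42.3% to 50.6% of its transcript, so its value is uncertain. In the thioredoxin and peroxiredoxin list, 2 of 15 background genes (13.3%) had a mean above FPKM 30, against 13.6% of all background genes. They were TXNRD1 and the mitochondrial peroxiredoxin PRDX3, which had 54.2 and 51.0 FPKM. SRXN1, the sulfiredoxin that repairs overoxidised peroxiredoxins and is itself an NRF2 target, had 30.1 and 28.7 FPKM, on both sides of the threshold. PRDX1 had 26.2 and 26.8 FPKM and PRDX6, a peroxiredoxin that also has phospholipase activity, had 19.1 and 18.1 FPKM. The median of the list was 6.58 FPKM, close to the 6.81 FPKM of the background.

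The 2 subunits of glutamate-cysteine ligase, which carries out the limiting step of glutathione synthesis, had similar levels. GCLM, the modifier subunit, had 29.99 FPKM in replicate 1 and 27.9 FPKM in replicate 2, a mean of 28.9 ± 1.497 FPKM (SD, n = 2), and GCLC, the catalytic subunit, had 24.5 and 24.7 FPKM, a mean of 24.6 ± 0.114 FPKM (SD, n = 2). GCLM was 1.22 times GCLC in replicate 1 and 1.13 times in replicate 2, and the values of the subunits did not overlap. They ranked 1487 and 1764 of 10441. On GRCh38, GCLM spans chr1:93885199-93909430 and GCLC spans chr6:53497341-53545101, both on the minus strand, with 7 and 16 exons. The 3′ UTR makes up 3791 of the 4883 bases of the GCLM transcript, against 1415 of the 3785 bases of GCLC. GSS, the synthetase that adds glycine in the next step, was lower, at 7.504 and 6.928 FPKM, which puts GCLC at 3.27 and 3.56 times GSS.

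SLC7A11, the light chain of the cystine importer that feeds cysteine into this pathway, had 7.02 FPKM in replicate 1 and 6.30 FPKM in replicate 2, a mean of 6.66 ± 0.516 FPKM (SD, n = 2), and ranked 5281 of 10441, near the middle. Its heavy chain SLC3A2, which also serves other amino acid transporters, had 12.2 and 11.7 FPKM, so SLC7A11 was at 0.576 and 0.540 of SLC3A2. The order turned round when FPKM was multiplied by transcript length, with SLC7A11 at 2.86 times SLC3A2. The gene spans chr4:138164097-138242349 on the minus strand with 12 exons, and its 3′ UTR of 7859 bases is the longest of the 9. The span of an antisense gene, SLC7A11-AS1, with its introns, covers 7921 exonic bases of the 9645-base canonical transcript of SLC7A11. How many of these lie in antisense exons was not computed. The libraries are stranded, but the sources used here do not say whether quantification used the strand, so reads of the antisense gene could be counted in SLC7A11. The spans of antisense lncRNA genes likewise cover 710 and 450 exonic bases of NQO1 and GCLC. In the cystine uptake and glutathione synthesis list, 0 of 10 background genes had a mean above FPKM 30, against 13.6% of all background genes. After GCLM, GCLC and SLC3A2 the highest was CHAC1, which breaks glutathione down, at 7.46 and 7.79 FPKM.

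Of the enzymes that use, recycle or export glutathione, 2 of 27 in the background (7.41%) were above FPKM 30, against 13.6% of all background genes. They were GLO1, a glyoxalase that clears methylglyoxal with glutathione, at 62.6 and 61.8 FPKM, and the glutathione transferase GSTK1, at 44.2 and 43.1 FPKM. GPX4, the glutathione peroxidase of membrane lipids, had 27.8 and 26.0 FPKM, close to GCLM and NQO1. GSTP1, a further glutathione transferase, had 17.7 and 17.8 FPKM, and ABCC4, an exporter, had 12.6 and 13.9 FPKM. The list had a median of 5.02 FPKM, below the 24.6 FPKM of the 9 genes and also below the background.

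NQO1, the quinone reductase whose mRNA is a standard readout of NRF2, had 28.0 FPKM in replicate 1 and 27.2 FPKM in replicate 2, a mean of 27.6 ± 0.529 FPKM (SD, n = 2). Its values overlapped those of GCLM, the only pair of the 36 among the 9 genes to do so. The same share over pairs of background genes was not computed. Spearman's rho of the libraries across the background was 0.993, so nearly equal levels can fail to overlap. GCLC and PGD did so at a ratio of 1.01. NQO1 ranked 1548 of 10441. The gene spans chr16:69709401-69726560 on the minus strand, with 6 exons. Its paralog NQO2 had 2.52 and 2.56 FPKM, so NQO1 was 11.1 and 10.6 times as high. Per length of transcript, NQO1 was at 0.0787 and 0.0718 of GAPDH, a glycolytic enzyme at 355 and 379 FPKM that has many pseudogenes, and TXNRD1 was at 0.388 and 0.344 of it, but at 1.10 times GAPDH with FPKM multiplied by length. Among quinone and xenobiotic reducing enzymes, NQO1 came after CYB5R3, a cytochrome b5 reductase at 66.4 and 65.3 FPKM. CYB5R3 alone of the 12 in the background (8.33%) was above FPKM 30, against 13.6% of all background genes. UGDH, which makes UDP-glucuronate for conjugation, had 17.7 and 18.1 FPKM, the epoxide hydrolase EPHX1 had 14.1 and 14.7 FPKM, and the quinone reductase CRYZ had 7.37 and 6.37 FPKM.

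HMOX1, the inducible heme oxygenase, was the lowest of the 9 mRNAs. It had 4.93 FPKM in replicate 1 and 3.70 FPKM in replicate 2, a mean of 4.32 ± 0.873 FPKM (SD, n = 2), above 35.9% of the background. The gene spans chr22:35381096-35394207 on the plus strand, with 5 exons. TXNRD1 exceeded it 28.0 times in replicate 1 and 35.2 times in replicate 2. The constitutive heme oxygenase HMOX2 had 3.44 and 3.48 FPKM, so HMOX1 was 1.43 times HMOX2 in replicate 1 and 1.06 times in replicate 2. The values did not overlap, but in replicate 2 they nearly met. In the list of heme breakdown and export, 0 of its 9 genes had a mean above FPKM 30, against 13.6% of all background genes. This list is wider than its name, since it also holds an enzyme of heme synthesis. FECH, the ferrochelatase that completes heme and is a known NRF2 target, came nearest at 30.9 and 28.0 FPKM. By mean, the heme exporter ABCG2 came next at 4.80 and 4.96 FPKM, then HMOX1 itself. The biliverdin reductase BLVRA followed at 4.36 and 4.04 FPKM. The values of HMOX1 overlapped those of both ABCG2 and BLVRA.

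**Figure D1:**
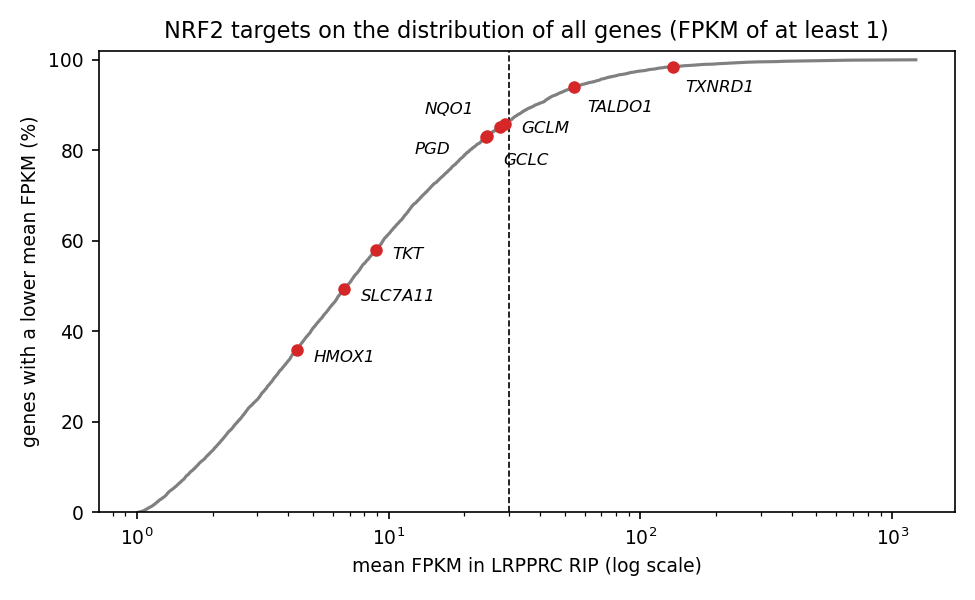
Percentage of the 10441 background genes with a lower mean FPKM (y axis) against mean FPKM in LRPPRC RIP on a log scale (x axis). The gray curve is the background, the dashed line is FPKM 30, and red points are the 9 NRF2 targets, which run from HMOX1 at 35.9% to TXNRD1 at 98.5%.

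The mRNAs of the 3 pentose phosphate enzymes of the set differed several-fold in FPKM. The pathway makes NADPH in an oxidative branch, which includes PGLS and PGD, and rearranges sugars in a non-oxidative branch, through RPIA, RPE, TKT and TALDO1. TALDO1, the transaldolase, had 54.5 FPKM in replicate 1 and 54.7 FPKM in replicate 2, a mean of 54.6 ± 0.174 FPKM (SD, n = 2), and ranked 634 of 10441. PGD, an NADPH-forming dehydrogenase, had 24.3 FPKM in each replicate, a mean of 24.3 ± 0.0407 FPKM (SD, n = 2), and ranked 1791. TKT, the transketolase that shares intermediates with TALDO1, had 7.70 and 10.0 FPKM, a mean of 8.87 ± 1.65 FPKM (SD, n = 2), and ranked 4396. TKT was thus at 0.141 of TALDO1 in replicate 1 and 0.183 in replicate 2, although both act in the same branch. With FPKM multiplied by transcript length this ratio was 0.406. On that scale TALDO1 had 65.5, PGD had 55.1 and TKT had 26.6, so the differences were smaller. On GRCh38, PGD spans chr1:10399064-10420511 and TALDO1 spans chr11:747464-765012, both on the plus strand, with 13 and 8 exons. TKT spans chr3:53224712-53256022 on the minus strand, with 14 exons.

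PGLS, the lactonase that makes the substrate of PGD, had 38.2 FPKM in replicate 1 and 37.8 FPKM in replicate 2. PGD was at 0.636 and 0.644 of PGLS, and their values did not overlap. With FPKM multiplied by transcript length the order turned round, and PGD was 1.44 times PGLS. In the non-oxidative branch TALDO1 was followed by RPE, the epimerase, at 10.2 and 9.90 FPKM, then TKT, and last RPIA, the isomerase, at 1.83 and 1.71 FPKM. RPE and TKT overlapped, and TALDO1 was 29.7 and 32.0 times RPIA. The transketolase-like paralog TKTL1 had 0.109 and 0.0876 FPKM, so the ratio of TKT to it, 70.8 in replicate 1 and 115 in replicate 2, depends on the library. Of the 12 genes of the pathway list in the background, 3 had a mean above FPKM 30, TALDO1, DERA and PGLS, or 25% against 13.6% of the background. DERA, a deoxyribose-phosphate aldolase, had 50.6 and 49.9 FPKM, and PRPS1, which turns ribose phosphate into the precursor of nucleotides, had 16.1 and 15.4 FPKM. A processed pseudogene of PGD, PGDP1, is 93.4% identical over 63.9% of the PGD transcript, so reads of PGD could be split with it, and no copy of at least 90% identity over 30% of the transcript was found for the other 8 genes.

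In the list of other NADPH sources, 3 of the 13 genes in the background (23.1%) were above FPKM 30, against 13.6% of all background genes. The list also holds relatives of NADPH-forming enzymes, so this is not a share of enzymes that form NADPH. The median of the list was 7.81 FPKM, against 11.7 FPKM for the pentose phosphate list. MTHFD1, a folate enzyme of the cytosol, had 71.6 and 72.0 FPKM, MTHFD2, of the mitochondrial folate pathway, had 54.8 and 52.5 FPKM, and IDH1, the cytosolic isocitrate dehydrogenase, had 36.9 and 36.3 FPKM. MTHFD1L had 22.4 and 23.6 FPKM and the malic enzyme ME2 had 23.2 and 22.6 FPKM.

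The mRNA of NRF2 itself was higher than any of its 9 targets. NFE2L2 had 324 FPKM in replicate 1 and 316 FPKM in replicate 2, above 99.5% of the background. Its adaptor KEAP1 had 12.8 and 12.3 FPKM and its ligase scaffold CUL3 had 34.7 and 32.7 FPKM. CAND1, which exchanges the adaptors of cullin ligases, had 111 and 91.9 FPKM, and RBX1, their RING subunit, had 1.57 and 1.32 FPKM. The mRNAs of KEAP1, CUL3 and RBX1, subunits of 1 ligase, thus differed widely in level in the precipitate. SQSTM1 and DPP3, which compete with NRF2 for KEAP1, had 18.3 and 18.0 FPKM and 17.5 and 18.6 FPKM, and PALB2, a further KEAP1 partner, had 6.20 and 6.12 FPKM. BACH1, a repressor of HMOX1 at the same elements, had 11.4 and 9.59 FPKM. The small MAF partners were low, with MAFG at 3.97 and 4.13 FPKM, MAFK at 4.71 and 4.39 FPKM and MAFF at 1.53 and 1.68 FPKM. The related factor NFE2L1 had 7.29 and 7.89 FPKM, and BTRC, an adaptor of a second ligase for NRF2, had 5.51 and 5.37 FPKM. Of the 14 regulators in the background 3 (21.4%) were above FPKM 30, NFE2L2, CAND1 and CUL3, against 13.6% of all background genes.

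**Figure D2:**
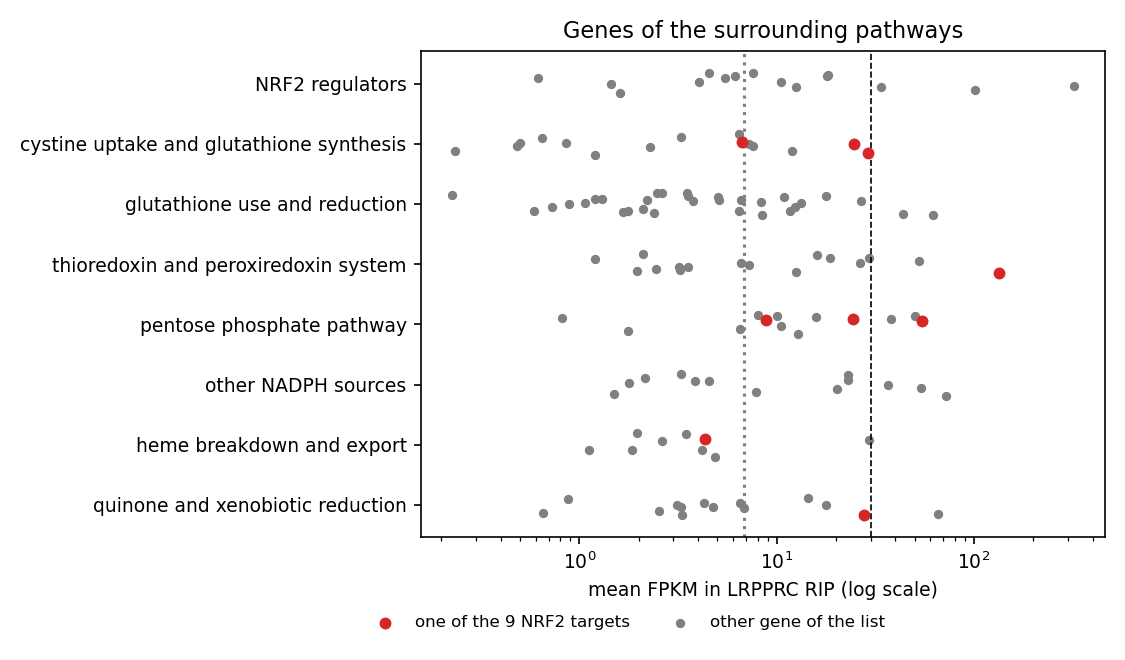
Genes of 8 lists (y axis) by their mean FPKM in LRPPRC RIP (x axis, log scale), with the 9 NRF2 targets in red and other genes in gray. The dashed line is FPKM 30 and the dotted line the background median of 6.81, points are spread vertically for legibility, and 3 genes below FPKM 0.1 are not drawn. TXNRD1, at 134, is the red point farthest to the right.

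Beyond the 9 genes, the 8 lists held 103 genes in the background, of which 12 (11.7%) were above FPKM 30, against 13.6% of all background genes. Their median was 6.44 FPKM, against 6.81 FPKM. The rest of these pathways as a whole was therefore near the background. Of the 9 genes, 7 were above the background median, a level that by definition splits the background evenly. The 9 were chosen with earlier results of these data known, and this contrast was not tested. The lists overlap in no gene, and 3 of their 132 genes were not analysed here.

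The length of the transcripts bears on these levels, since FPKM divides by it. The canonical transcripts of the 9 genes in GENCODE 44 had a median length of 2996 bases, against 3561 bases in the background, and a median 3′ UTR of 1415 bases, against 1426 bases. They ran from 1199 bases for TALDO1 to 9645 bases for SLC7A11. When mean FPKM was multiplied by length in kb, which approximates the share of fragments, TXNRD1 stayed highest, at 518, followed by GCLM at 141 and GCLC at 93.1. NQO1 had 69.5, TALDO1 had 65.5, SLC7A11 had 64.2 and PGD had 55.1 on this scale, so the long SLC7A11 mRNA came level with the short TALDO1 mRNA. HMOX1, at 6.71, was again the lowest, and TKT, at 26.6, was next to it in place of SLC7A11. Across the 10368 background genes with a length, Spearman's rho of length and mean FPKM was 0.13, and across the 9 genes it was 0.05. All genes share the same 2 libraries, and no p-value was computed.

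Among the 9 genes, TKT and HMOX1 differed most between the libraries. Of the 9 genes, 0 differed by more than 1.5 times between the libraries, against 1.52% of the background. PGD, TALDO1 and GCLC differed by less than 1%, whereas TKT was 1.303 times as high in replicate 2 and HMOX1 1.33 times as high in replicate 1. On the scale of log2(FPKM + 1), replicate 2 minus replicate 1, this was 0.34 for TKT and −0.34 for HMOX1, and 97.0% and 96.9% of the background genes had a smaller difference. Among the 6425 background genes with a mean below FPKM 10, where both lie, 96.5% and 96.4% had a smaller difference. SLC7A11 and GCLM came next, at −0.14 and −0.10, and 83.4% and 73.9% of all background genes had a smaller difference than these. The median absolute difference was 0.08 for the 9 genes and 0.05 for the background. Of the 9, 5 were higher in replicate 1 and 4 in replicate 2.

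**Figure D3:**
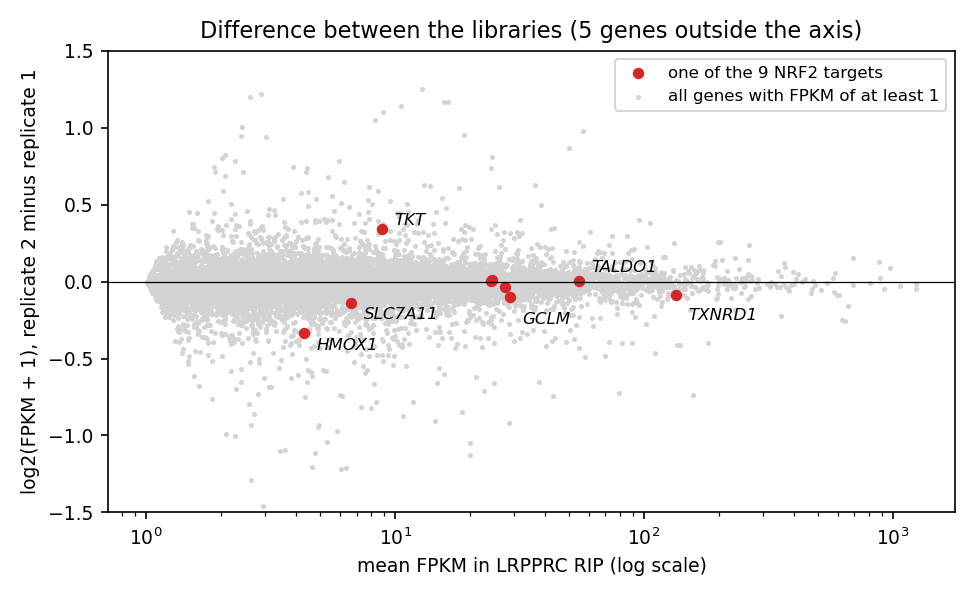
Difference of log2(FPKM + 1) between the libraries, replicate 2 minus replicate 1 (y axis), against mean FPKM on a log scale (x axis), for the 9 NRF2 targets (red) and all background genes (gray). TKT, at 0.34, and HMOX1, at −0.34, lie farthest from 0 among the red points, and 5 background genes fall outside the axis.

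The precipitates carried transcripts of an epithelial line. KRT8, KRT18 and KRT19 had mean levels from 12.1 to 337 FPKM, whereas EPCAM and CDH1 were at 0.430 and 1.33 FPKM. The markers measured of alveolar type 2 cells, blood and endothelium were each below FPKM 1, and of the fibroblast markers only COL1A2 passed it, at 1.36 FPKM. The 9 genes made up 0.162% of the FPKM total of 196627 in replicate 1 and 0.159% of that of 194839 in replicate 2.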

How the data were processed

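The LRPPRC precipitates of A549 cells were sequenced as 2 libraries of 1 group. The FPKM values were deposited by the authors, who used cutadapt 1.18 for adapters and HISAT2 2.1.0 for alignment to GRCh38, sorted with SAMtools and quantified each library with StringTie 1.3.3b against an Ensembl annotation. The depth is unknown. Among 5405 genes below a mean of FPKM 0.3, no interval of 0.02 in the log2 ratio between libraries held more than 1.41%, so read counts could not be recovered and counting intervals were not computed.

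From these values the mean and SD, ranks, ratios within a library and counts above FPKM 30 were computed, with no test. The background was named genes that reached FPKM 1 in each library, with the higher row for the 32 rows that repeat a name. The 4460 rows without a gene name were left out of it. Of 16770 names, 16461 matched GENCODE 44, a later annotation than that of the authors on the same assembly. Copies were sought with blastn 2.17.0 among its transcripts. Named are the 9 genes, their partners, the 5 highest genes of each list and the NRF2 regulators above FPKM 1. TXNRD3, RPE and EID3 were added after their values were seen, and no gene was named for a like pattern, since there is 1 condition. The lists leave out 1 gene that is not reported here. The genes and lists were chosen with earlier results of these data known. Alternatives were thresholds, backgrounds, each library alone, pseudocounts, TPM and multiplication by length. Python 3.11.15, numpy 2.4.6, pandas 2.3.3 and matplotlib 3.10.9 were used, and the scripts were checked on a made-up table.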

Additional observations from a re-analysis of the deposited data

How the results depend on the processing

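The number of the 9 genes above FPKM 30 was 2 with either library alone, in both or either library and at FPKM 50, and 6 at FPKM 20. Of all background genes, 21.1% passed FPKM 20 and 6.89% passed FPKM 50, while FPKM 30 was passed by 13.2% in both and 14.0% in either library, by 13.6% to 13.7% with a single library, and by 8.46% without a filter on low values and 10.6% with a filter of FPKM 0.1. The genes of the 8 lists above the threshold numbered 25 at FPKM 20, against 14 at FPKM 30. With 1 library left out, the median of the 9 levels was 24.5 to 24.7 FPKM and the fold between the highest and the lowest gene 28.0 to 35.2. With FPKM multiplied by length, which is another quantity, 3 ratios crossed 1: SLC7A11 to SLC3A2 was 2.86, PGD to PGLS 1.44 and TXNRD1 to GAPDH 1.10. On that scale other ratios kept their direction, with TXNRD1 to TXN at 219.9 in place of 42.0, TXNRD1 to TXNRD2 at 222 in place of 112, GCLC to GSS at 6.77 in place of 3.41, NQO1 to NQO2 at 25.5 in place of 10.9, TKT to TALDO1 at 0.406 in place of 0.162, NQO1 to GAPDH at 0.148 in place of 0.0752, TALDO1 to RPIA at 20.4 in place of 30.9 and GCLM to GCLC at 1.518 in place of 1.177. Ranks moved by more than their spread between libraries for 8 of 9 genes on that scale, and TALDO1 ranked 2742 in place of 634. No rank moved by more than its spread under TPM scaling, which multiplies each library by a constant and so could hardly move ranks. No paired analysis was possible because both libraries belong to 1 group. The unknown depth leaves the precision of low values, such as those of HMOX1, unstated.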

Other observations

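Of the 112 genes of the 8 lists in the background, 2 differed by more than 1.5 times between the libraries. GSTO1, a glutathione transferase of the omega class, had 3.12 FPKM in replicate 1 and 1.07 FPKM in replicate 2, and HAGH, the hydrolase that follows GLO1, had 2.64 and 1.75 FPKM. TXN2, the mitochondrial thioredoxin, fell outside the background through 1 library, with 13.7 FPKM in replicate 1 and 0.790 FPKM in replicate 2. These genes were named after their values were seen.

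The 16 list genes with a canonical transcript under 1000 bases had a median of 3.43 FPKM, and 0 of them were above FPKM 30. They varied widely, and GPX4 at 26.9 FPKM, PRDX1 at 26.5 FPKM, GSTP1 at 17.8 FPKM and PRDX5 at 12.6 FPKM were above the background median of 6.81 FPKM. Of the 539 background genes of such length, 14.5% were above FPKM 30 and the median was 5.83 FPKM. The limit of 1000 bases was chosen after the values were seen, and the difference was not tested.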
